A study of Mus musculus with 4 samples.

Results

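Protease inhibitor genes of the serpin, cystatin, stefin and Ctla2 families were followed in mouse macrophages and osteoclasts. The set was defined by gene symbol alone and holds every symbol that begins with Serpin, Stfa or Ctla2, or that is Cst followed by a letter or number, with the Cstf genes left out. Of 22903 named genes on the array, 88 belonged to it, represented by 105 probes. Of these, 46 were well above background on any array and 31 on all 4 arrays, and 42 were well above background on none. The 46 are 52.3% of the set, against 69.2% of all named genes. Cstad matches by its letters only. It is a T cell activation gene and no cystatin.

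Expression was measured in 4 groups with 1 one-colour array each: both cell types from wild-type mice, and both from LysM-St18flox mice. Marrow cells became macrophages over 4 days with M-CSF, a growth factor of the lineage, at 25 ng/ml. To make osteoclasts, which resorb bone, such macrophages were kept for 3 more days with M-CSF at 25 ng/ml and RANKL, a cytokine needed for osteoclasts to form, at 50 ng/ml. RANKL and time in culture therefore differ together between the cell types and cannot be told apart. By convention the name LysM-St18flox means that Cre recombinase is made from the lysozyme M locus, which is active in myeloid cells, and cuts a floxed St18 gene, which encodes a zinc finger transcription factor. The sources used here do not give whether the wild-type mice carried the floxed allele or the Cre, nor the age, sex, number or pooling of mice.

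Serpins are folded with a spring-loaded loop that a serine protease, or in some cases a cysteine protease, cuts as if it were a substrate. The loop then snaps into the serpin and drags the trapped enzyme with it, so that each serpin molecule is used up by a single protease molecule. Cystatins and stefins instead plug the active site of papain-like cysteine proteases such as the cathepsins, reversibly, outside cells or in lysosomes for the secreted cystatins and in the cytosol for the stefins. Ctla2a and Ctla2b resemble the propeptide of cathepsin L, the part that keeps the enzyme inactive until it is removed. Osteoclasts release cathepsin K, a papain-like protease, to digest the collagen of bone, and macrophages make many cathepsins together with urokinase, the serine protease that activates plasminogen.

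All values are log2 signals relative to the 75th percentile of the array, so 0 means that percentile. Probes of different genes differ in brightness, and levels were compared between arrays for 1 gene at a time. With 1 array per group there was no test and no p-value, and a change here means a difference of 2-fold or more between 2 arrays, which is 1 on the log2 scale. Where a gene was not well above background on 1 of the 2 arrays, the difference is a bound and is written as "at least". Between 59.0% and 63.2% of spots were well above background on the arrays, and no spot was saturated. Repeated spots of a probe on the same array had a median SD of 0.031 to 0.042, a technical spread that says nothing of how cultures or mice vary. Of 9 osteoclast markers, 7 and 8 were well above background on the macrophage arrays and all 9 on both osteoclast arrays. The summed linear signal of these markers was 11.5 and 9.66 in wild-type and LysM-St18flox macrophages, and 760 and 972 in the osteoclasts. St18 was at 0.29 in macrophages and 1.55 in osteoclasts of the wild type, and at -1.52 and 1.12 in the same cells of LysM-St18flox. It was lower in LysM-St18flox by 3.51-fold in macrophages and by 1.35-fold in osteoclasts. The position of its probe relative to the floxed part is unknown here, so this does not check the deletion.

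Osteoclasts differed from macrophages in many of these inhibitors, in both directions. In the wild type 9 members were higher and 5 lower in osteoclasts, of 38 that could be compared, which is 36.8%. Of all 14734 genes compared in the same way, 13% differed at least 2-fold, 5.7% higher and 7.32% lower. In LysM-St18flox 12 were higher and 9 lower of 46, which is 45.7%, against 23.2% of 15576 genes, 10.9% higher and 12.2% lower. The median difference of the members was -0.05 for the wild type and 0.07 for LysM-St18flox, near the medians of all genes at 0.0015 and -0.02. The median size of a difference, without its sign, was 0.65 and 0.89 for the members and 0.31 and 0.48 for all genes. The changes ran in both directions: heparin cofactor II, antithrombin, cystatin F and several intracellular serpins were higher, and the Ctla2 genes, Serpinf1 and Cstad lower. Of the differences, 7 of the wild type and 14 of LysM-St18flox were bounds, in which a gene enters because it is bright on the other array. Among the members measured on both arrays of the wild type, 9 of 31 passed 2-fold, against 11.4% of all genes so measured, and in LysM-St18flox 12 of 32, against 21.6%.

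**Figure D1:**
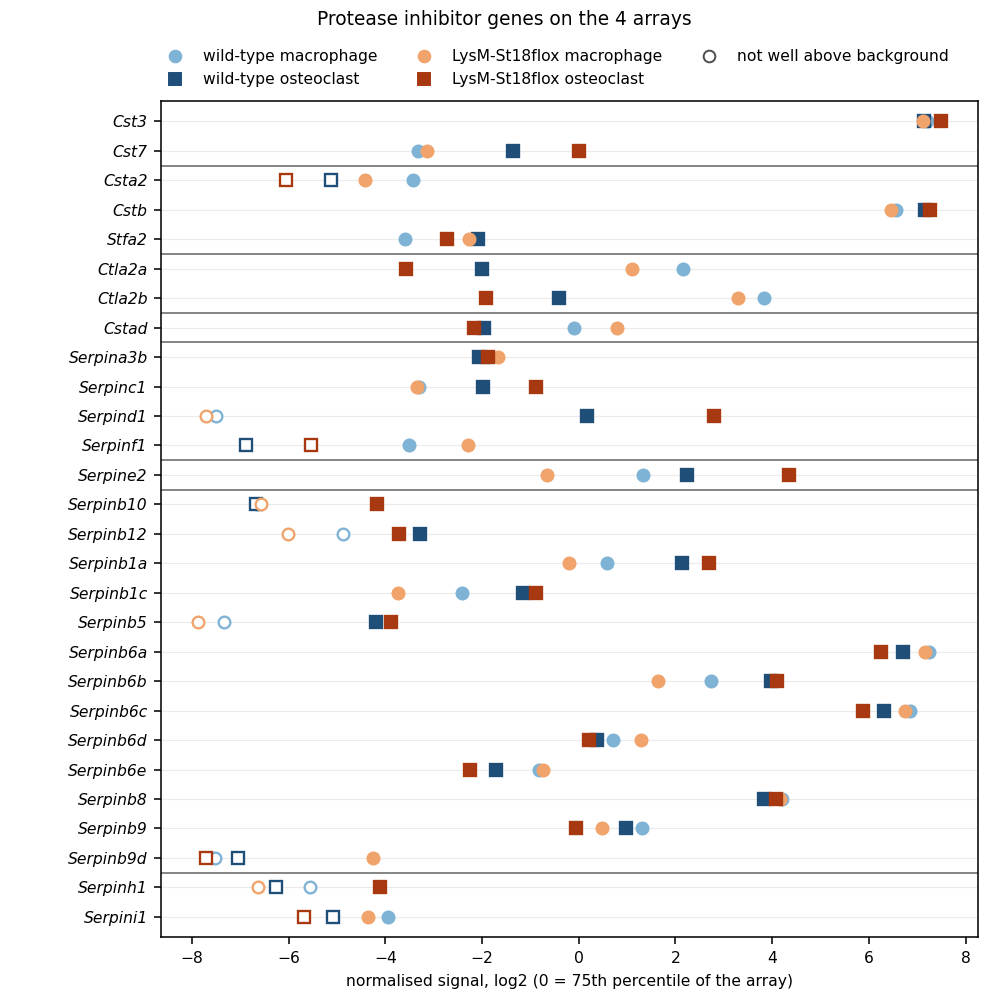
Normalised log2 signal (x axis, 0 is the 75th percentile of the array) of 28 members: 22 that differed at least 2-fold in any comparison and the 6 with the highest signal among the rest. Each row is 1 gene with 1 point per array, circles for macrophages and squares for osteoclasts, open where not well above background; horizontal lines part the families. Serpind1 lies at or below -7.51 on the macrophage arrays and at 0.17 and 2.80 on the osteoclast arrays, and Ctla2a and Ctla2b are higher on the macrophage arrays.

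The Ctla2 genes were the members that were lower in osteoclasts by the widest margin. Ctla2a was at 2.15 in wild-type macrophages and -2.0 in wild-type osteoclasts, and at 1.1 and -3.56 in the same cells of LysM-St18flox. Ctla2b was at 3.82, -0.41, 3.29 and -1.92 in the same order. For each gene the macrophage arrays lay above both osteoclast arrays. Ctla2a was 17.8-fold lower in wild-type osteoclasts and 25.4-fold lower in LysM-St18flox osteoclasts, and Ctla2b 18.8-fold and 37.1-fold lower. The transcripts of these genes are much alike, and whether each probe also binds the other transcript was not tested.

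Their promoters are shown because the genes lie near each other and moved together. The sequences are RefSeq's for assembly GRCm38.p6, 250 bases up to the transcription start, 5′ to 3′ on the minus strand, at chr13:60936626-60936875 for Ctla2a, the further upstream of its 2 listed starts, and at chr13:60897448-60897697 for Ctla2b. Capitals mark the AP-1 motif TGANTCA, searched on both strands.
Ctla2a: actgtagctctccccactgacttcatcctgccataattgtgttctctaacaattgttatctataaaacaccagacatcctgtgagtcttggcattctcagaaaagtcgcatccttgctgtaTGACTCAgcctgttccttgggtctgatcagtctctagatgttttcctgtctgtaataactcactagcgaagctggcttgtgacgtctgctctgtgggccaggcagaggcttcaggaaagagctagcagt
Ctla2b: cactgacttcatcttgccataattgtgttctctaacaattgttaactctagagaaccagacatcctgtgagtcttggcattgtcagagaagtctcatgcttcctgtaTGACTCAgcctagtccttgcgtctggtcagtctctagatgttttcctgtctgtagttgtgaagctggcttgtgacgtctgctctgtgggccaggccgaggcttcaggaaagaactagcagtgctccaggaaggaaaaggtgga
After alignment, 208 of 228 paired bases were identical (91.2%), with 44 gap columns. Each window holds 1 AP-1 match, which begins at -129 in Ctla2a and -143 in Ctla2b, counted back from the start. This motif occurs in 6.75% of the 32851 promoters of the table. A match describes the letters only.

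Among the secreted cystatins, cystatin F stood out and cystatin C did not. Cst7, which encodes cystatin F, an inhibitor carried to lysosomes of leukocytes that acts on cathepsin C, was at -3.32 in macrophages and -1.36 in osteoclasts of the wild type, and at -3.14 and 0.01 in the same cells of LysM-St18flox. Both osteoclast arrays lay above both macrophage arrays, by 3.88-fold for the wild type and 8.87-fold for LysM-St18flox. Cst3, which encodes cystatin C, a general cathepsin inhibitor of body fluids, stayed between 7.12 and 7.48 on the 4 arrays. Its differences between cell types were -0.05 and 0.36, and its other probe gave 0.06 and 0.38. Cst6, for cystatin E/M, which also blocks legumain, lay between -3.77 and -3.21. Cstdc1 lay between -5.09 and -4.37 by the probe used. Its other probe was well above background on the LysM-St18flox macrophage array alone, at -4.62. Cst8, known from the male reproductive tract, passed background on the LysM-St18flox osteoclast array alone, at -5.45, close to the lowest such signal of that array (-5.50).

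The cytosolic stefins did not change as a group. Cstb, for stefin B, an inhibitor of several cathepsins, was at 6.56, 7.16, 6.45 and 7.27 in wild-type macrophages and osteoclasts and then the LysM-St18flox cells. Both osteoclast arrays were higher, by 1.52-fold and 1.76-fold, short of 2-fold. Stfa2, a mouse stefin A gene, was at -3.60, -2.09, -2.28 and -2.73 in the same order. In the wild type it was 2.83-fold higher in osteoclasts, and in LysM-St18flox the difference was -0.45. Csta2, a stefin A relative, was well above background on the macrophage arrays alone, at -3.43 for the wild type and -4.42 for LysM-St18flox, and at least 2.76-fold and 2.12-fold lower in osteoclasts. Its neighbour Cstdc5 was likewise measured on the macrophage arrays alone, at -4.26 and -4.88, with bounds of 1.26-fold and 1.54-fold. With the normexp background correction Stfa2 differed by 0.722 and Csta2 by -0.613 in the wild type, both under 2-fold, and Csta2 by -0.388 in LysM-St18flox. Median centring and quantile normalization also took the LysM-St18flox difference of Csta2 under 2-fold, to -0.911 and -0.886. Of the 11 type 1 cystatins, Csta2, Cstb, Cstdc5 and Stfa2 were measured. Cstad was at -0.09 in macrophages and -1.95 in osteoclasts of the wild type, and at 0.79 and -2.17 in the same cells of LysM-St18flox, 3.63-fold and 7.81-fold lower in osteoclasts.

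Genes of cysteine proteases were set beside these inhibitors: cathepsins, legumain, the calpain genes Capn1 and Capn2, and Casp1, for caspase-1. The calpains and caspase-1 are no cathepsins, and whether these inhibitors act on each listed enzyme was not tested. Of 14 such genes, 1 was at least 2-fold higher in osteoclasts of each genotype, Ctsk, for cathepsin K, which was 207-fold and 325-fold higher. In the wild type 3 were lower: Ctsc, for cathepsin C, by 2.66-fold, Lgmn, for legumain, by 2.60-fold, and Ctsh, for cathepsin H, by 2.27-fold. In LysM-St18flox 6 were lower, these same genes by 3.74-fold, 4.13-fold and 2.41-fold together with Ctso, Capn1 and Casp1. Genes that changed in either direction made up 28.6% of the list for wild-type cells and 50% for LysM-St18flox cells. Among all genes compared the shares were 13% and 23.2%. The median of the list was -0.35 for the wild type and -0.52 for LysM-St18flox, against 0.0015 and -0.02 for all genes. Cathepsin L, the enzyme whose propeptide the Ctla2 proteins resemble, differed by -0.22 and -0.25 between cell types. Ctsc was thus lower in osteoclasts while Cst7 was higher, and Ctsl differed little while Ctla2a and Ctla2b were lower.

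**Figure D2:**
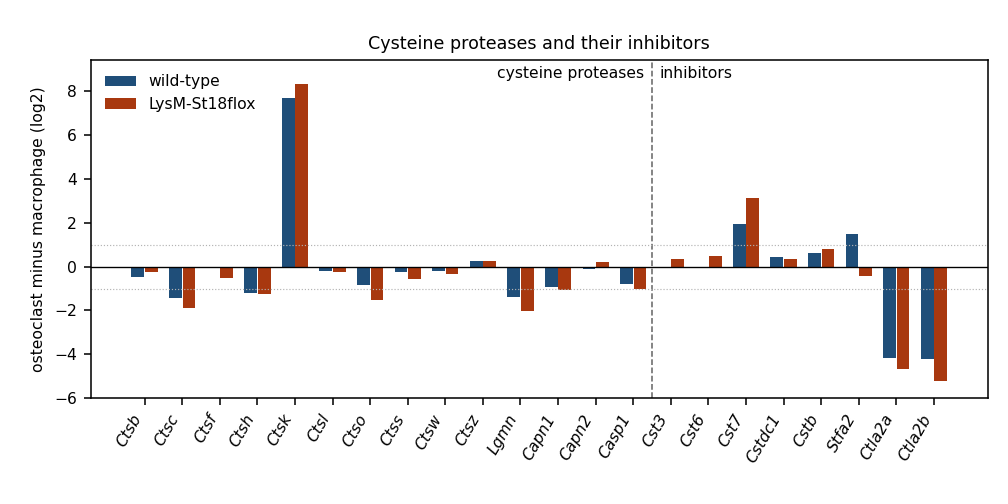
Difference between osteoclasts and macrophages (y axis, log2) for 14 cysteine proteases, left of the dashed line, and for the 8 cystatin, stefin and Ctla2 genes well above background on all 4 arrays, right of it. Blue bars are wild-type and red bars LysM-St18flox, 1 pair of arrays each, and dotted lines mark 2-fold; the wild-type bar of Ctsw is a bound. Ctsk rises to 7.69 and 8.34, and Ctla2b lies at -4.24 and -5.21.

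Among the serpins of blood plasma, the thrombin inhibitors were higher in osteoclasts. Serpind1, for heparin cofactor II, which inactivates thrombin when bound to glycosaminoglycans, was not well above background in macrophages of either genotype, with signals of -7.51 for the wild type and -7.71 for LysM-St18flox. It was at 0.17 in wild-type osteoclasts and at 2.80 in LysM-St18flox osteoclasts. It was therefore at least 44.9-fold higher in osteoclasts of the wild type and at least 329-fold higher in those of LysM-St18flox. In the reported setting no other member differed as much between the cell types in either genotype. The minima for Serpind1 depend on the background handling. With normexp its bounds were 3.363 and 6.543 on the log2 scale, against 5.487 and 8.362 in the reported setting. Its wild-type bound with normexp lay under the sizes of the differences of Ctla2a (-3.771) and Ctla2b (-3.955) in that setting. Serpinc1, for antithrombin, the main inhibitor of thrombin and factor Xa, was at -3.29 in macrophages and -1.97 in osteoclasts of the wild type, and at -3.35 and -0.88 in the same cells of LysM-St18flox. Both osteoclast arrays were above both macrophage arrays, by 2.50-fold and 5.53-fold. With normexp the wild-type difference of Serpinc1 was 0.895, under 2-fold.

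Serpinf1 went the other way. It encodes PEDF, a serpin without inhibitor activity that is known for restraining vessel growth. It was well above background on the macrophage arrays, at -3.50 for the wild type and -2.29 for LysM-St18flox, and not on the osteoclast arrays, and was at least 2.62-fold and 9.26-fold lower in osteoclasts. A second probe agreed in direction, at -0.84 and -1.65, and the remaining probe was not well above background on any array. With normexp its wild-type difference was -0.894, under 2-fold. Of the 29 plasma-type serpins 14 were measured. The alpha-1-antitrypsin genes Serpina1b, Serpina1e and Serpina1f, the antichymotrypsin relatives Serpina3b, Serpina3h and Serpina3m, and Serpina9 and Serpina11 passed background on all 4 arrays. Their differences between cell types lay between -0.79 and 0.93. Serpina3b was at -1.89, -2.06, -1.67 and -1.87 in the order used above. The Serpina1 and Serpina3 genes are families of close copies, so which copy a probe measures is uncertain. Serping1, for the C1 inhibitor of complement, lay between -5.22 and -4.37, and its signal in wild-type osteoclasts was not well above background. Serpinf2 and Serpina4-ps1 were well above background on the LysM-St18flox macrophage array alone, at -4.97 and -5.03.

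Just upstream of Serpind1, the 250 bases before the RefSeq start are shown, on the plus strand at chr16:17331121-17331370 of GRCm38.p6. Serpind1 was the member that differed most between the cell types in the reported setting. Capitals mark the NFAT core motif GGAAA, searched on both strands, since Nfatc1 is the known master factor of osteoclasts.
Serpind1: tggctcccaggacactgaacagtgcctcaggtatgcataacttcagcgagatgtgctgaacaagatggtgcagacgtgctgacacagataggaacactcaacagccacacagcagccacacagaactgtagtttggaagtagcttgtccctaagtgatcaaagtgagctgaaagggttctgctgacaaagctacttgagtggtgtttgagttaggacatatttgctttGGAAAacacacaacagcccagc
The motif has 1 match here, which begins at -22. It is a short motif found in 55.6% of the table's promoters, so a match is common. Of the 23 members past 2-fold, 21 had a promoter in the table, and in the first window listed for each, 14 held the NFAT core, 5 the AP-1 motif, 2 the E-box CATGTG read by MITF (12.3% of all promoters) and 1 the interferon response element (2.98%). The 5 with AP-1 were Ctla2a and Ctla2b, which were lower in osteoclasts, and Serpinb5, Serpinb10 and Serpinb12, which were higher in at least 1 genotype.

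Serpine2, for protease nexin-1, which inhibits thrombin and urokinase, was at 1.33 in macrophages and 2.23 in osteoclasts of the wild type, and at -0.65 and 4.34 in the same cells of LysM-St18flox. The LysM-St18flox arrays were thus the lowest and the highest. Serpine2 was 1.87-fold higher in osteoclasts in the wild type, short of 2-fold, and 31.9-fold higher in LysM-St18flox. Serpine3 was not well above background on any array.

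Proteases and other partners of the serpins were set beside them. Plau, for urokinase, was 4.51-fold lower in osteoclasts of the wild type and 4.11-fold lower in LysM-St18flox. Lrp1, the receptor that clears serpin and protease complexes from the cell surface, was 2.21-fold and 2.54-fold lower. Of 26 serine proteases and partners of serpins, 4 were higher and 4 lower of the 16 compared in the wild type, and 3 higher and 3 lower of 19 in LysM-St18flox. These are 50.0% and 31.6% of those compared, against 13% and 23.2% of all genes. St14, for matriptase, was 2.88-fold and 3.15-fold higher, and Htra1, a secreted protease, 66.8-fold and 57.2-fold higher. F2, for prothrombin, was well above background on 1 array, where it lay at -5.46, and Plg, for plasminogen, Plat, for tissue plasminogen activator, and Gzmb on none. F11, for coagulation factor XI, a target of antithrombin, passed background on the LysM-St18flox osteoclast array alone, at -2.22, at least 10.2-fold above LysM-St18flox macrophages.

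The intracellular serpins of clade B differed in both directions, also among close relatives. Of 27, 16 were measured. Of the 13 compared in the wild type, 5 were higher and none lower in osteoclasts, against 5.7% and 7.32% of all genes. Of the 16 compared in LysM-St18flox, 6 were higher and 3 lower, against 10.9% and 12.2%. Serpinb1a, an inhibitor of neutrophil elastase and related proteases, was at 0.59 in macrophages and 2.15 in osteoclasts of the wild type, and at -0.19 and 2.69 in the same cells of LysM-St18flox. Serpinb1c, its close copy, was at -2.42, -1.14, -3.73 and -0.89. Serpinb6b was at 2.74, 3.97, 1.64 and 4.10. In each of these the osteoclast arrays lay above both macrophage arrays, by 2.93-fold and 7.36-fold for Serpinb1a, 2.42-fold and 7.19-fold for Serpinb1c, and 2.35-fold and 5.50-fold for Serpinb6b. With normexp Serpinb1c differed by 0.858 in the wild type, under 2-fold. Serpinb1b differed by -0.35 and -0.31.

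The other Serpinb6 genes were lower or level. Serpinb6a, an inhibitor of cathepsin G among others, was at 7.24, 6.70, 7.15 and 6.24 in wild-type macrophages and osteoclasts and then the LysM-St18flox cells, and Serpinb6c at 6.85, 6.31, 6.75 and 5.87. Their differences were nearly the same, -0.54 and -0.91 for Serpinb6a and -0.54 and -0.88 for Serpinb6c, and whether their probes tell these close copies apart was not tested. Serpinb6e was at -0.81, -1.71, -0.73 and -2.24 in this order, 1.86-fold lower in wild-type osteoclasts and 2.84-fold lower in LysM-St18flox osteoclasts. Serpinb6d was at 0.71, 0.38, 1.29 and 0.21, and 2.11-fold lower in LysM-St18flox osteoclasts. With each array centred on its median this last difference was -0.91, under 2-fold, while with quantile normalization Serpinb6a and Serpinb6c passed 2-fold in LysM-St18flox, at -1.26 and -1.21.

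A cluster of clade B serpins that begins with Serpinb5 holds 12 genes, of which 6 were measured, 4 of them on osteoclast arrays alone. Serpinb5, for maspin, a serpin known from epithelia, was at -4.19 in wild-type and -3.89 in LysM-St18flox osteoclasts, at least 2.19-fold and 3.19-fold above the macrophages. Serpinb12 was at -3.28 and -3.71, at least 3.00-fold and 3.62-fold higher. Serpinb10, known from blood-forming cells, and Serpinb7 passed background on the LysM-St18flox osteoclast array alone, at -4.17 and -5.06. These signals are dim, and with the normexp background correction the differences of Serpinb5, Serpinb10 and Serpinb12 fell under 2-fold in each comparison that had counted them. The second cluster, which begins with Serpinb1a, holds 15 genes, of which 9 passed background on every array and none on osteoclast arrays alone. Over all members, 7 of 46 were measured on osteoclast arrays alone (15.2%) and 7 on macrophage arrays alone (15.2%), against 3.34% and 4.99% of all measured genes. Of these members, 3 and 4 were well above background on both arrays of the cell type. The set was also less often well above background than all named genes (52.3% against 69.2%), and these shares were not compared at equal brightness.

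Serpinb8, an inhibitor of furin, depends on the probe. The brighter probe was at 4.20, 3.84, 4.15 and 4.07 in wild-type macrophages and osteoclasts and then the LysM-St18flox cells, with differences of -0.36 and -0.08 between cell types. The other probe was well above background on all 4 arrays, at -0.94, 1.15, -1.75 and 1.33, with differences of 2.09 and 3.08. Serpinb9, the inhibitor of granzyme B, was at 1.31, 0.98, 0.49 and -0.06, and differed by -0.33 and -0.55. Serpinb9d was well above background on the LysM-St18flox macrophage array alone, at -4.26, at least 2.36-fold above LysM-St18flox osteoclasts. Its other probe was well above background on none, and the median over both probes gave a difference of -0.104 between the same arrays. Serpinb3c lay between -3.81 and -3.69.

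Serpinh1, for the collagen chaperone Hsp47, passed background on the LysM-St18flox osteoclast array alone, at -4.12, at least 2.73-fold above LysM-St18flox macrophages. Serpini1, for neuroserpin, an inhibitor of tissue plasminogen activator, was well above background on the macrophage arrays alone, at -3.94 and -4.37, and at least 1.93-fold and 2.19-fold lower in osteoclasts. With normexp the LysM-St18flox differences were 0.651 for Serpinh1 and -0.445 for Serpini1, both under 2-fold. Serpini1 was also under 2-fold there with median centring (-0.963) and quantile normalization (-0.941), while in the wild type these gave -1.01 and -1.01.

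Most members that differed between cell types kept their direction in the second genotype, with larger differences in LysM-St18flox. All 5 that were lower in wild-type osteoclasts were lower in those of LysM-St18flox, 55.6% of the 9 there. Of the 9 that were higher in the wild type, 8 were higher in LysM-St18flox, 66.7% of the 12 there, and Stfa2 was the exception. This overlap was not counted over all genes, so whether it is particular to the members is not known. Among members well above background on all 4 arrays, 11 had a mean difference of at least 2-fold, and all 11 differed more in LysM-St18flox. Among all genes chosen so, 86.9% did. The median excess was 1.19 for these members and 0.65 for all genes. The difference of the differences passed 2-fold for 9 of 31 members, 7 with the higher and 2 with the lower difference in LysM-St18flox, against 7.9% of all genes, 3.2% and 4.7%. Among the former it was 17.1-fold for Serpine2, 2.97-fold for Serpinb1c, 2.51-fold for Serpinb1a, 2.34-fold for Serpinb6b, 2.29-fold for Cst7 and 2.21-fold for Serpinc1. Among the latter it was 3.87-fold for Stfa2 and 2.15-fold for Cstad. Each genotype's difference uses its own pair of arrays, so a deviation of any 1 array enters these values in full.

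**Figure D3:**
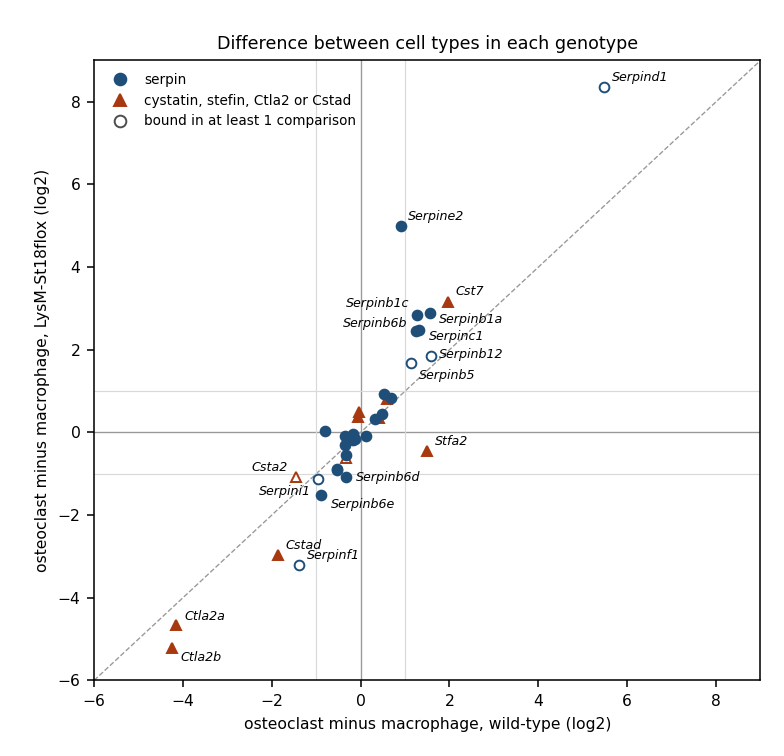
Difference between osteoclasts and macrophages in the wild type (x axis, log2) and in LysM-St18flox (y axis, log2) for 37 members compared in both genotypes, 1 point per gene. Circles are serpins and triangles the other inhibitors, open where at least 1 difference is a bound; the dashed line marks equal differences and pale lines 2-fold. Serpine2 (0.90 and 4.99) and Cst7 (1.96 and 3.15) lie above the line, and Stfa2 (1.5 and -0.45) lies below it.

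Between genotypes, macrophages differed in members of several families. In LysM-St18flox macrophages 3 members were higher and 5 lower than in the wild type, of 39 compared, which is 20.5%, against 6.28% of 15161 genes, 3.3% higher and 2.98% lower. Among the lower, Serpine2 was 3.96-fold lower. Serpinb1c was 2.49-fold, Serpinb6b 2.15-fold and Ctla2a 2.07-fold lower. Stfa2 was 2.50-fold higher, Serpinf1 2.32-fold higher, with its second probe at 1.29, and Serpinb9d at least 2.09-fold higher. None of these 3 reached 2-fold with normexp, which gave 0.635 for Stfa2 and 0.53 for Serpinf1. The median over the members was -0.07 and over all genes -0.02. Plau itself was 1.84-fold lower, short of 2-fold, and Plaur, its receptor, was 2.05-fold lower. Cst3, Cstb, Cst7 and Serpinc1 lay between -0.10 and 0.18, and with quantile normalization or the authors' value table Cst3 and Cstb, and with normexp Cst7, took the opposite sign. Of the 14 cysteine proteases, Ctsf alone passed 2-fold between the genotypes in macrophages, at 1.04. Markers of cell state also differed on these arrays. Of 8 macrophage markers, Mertk was 3.16-fold, Mrc1 2.66-fold and Siglec1 2.13-fold higher in LysM-St18flox macrophages. The others lay between -0.40 for Csf1r and 0.28 for Fcgr1. Of the 8, 5 lay above 0 and 3 below, with a median of 0.19. The osteoclast markers were split: of 8 compared, 4 lay above 0 and 4 below, with a median of -0.03. Dcstamp was 3.50-fold and Ocstamp 2.01-fold lower, while Atp6v0d2 was 1.91-fold higher, short of 2-fold. The part of these markers in the members' differences was not tested.

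In osteoclasts the genotypes differed in members of several families too. In LysM-St18flox osteoclasts 4 members were higher and 3 lower than in the wild type, of 37 compared, which is 18.9%, against 7.75% of 14614 genes, 3.8% higher and 3.94% lower. Serpind1 was 6.20-fold higher, Serpine2 4.31-fold, Cst7 2.59-fold and Serpinc1 2.12-fold. Ctla2a was 2.96-fold lower, Ctla2b 2.85-fold and Serpinb9 2.06-fold. Serpinc1 was at 0.783 with normexp and Serpinb9 at -0.796 with each array centred on its median, both under 2-fold. The members higher here also rose between the LysM-St18flox macrophages and osteoclasts, and both comparisons use the same LysM-St18flox osteoclast array. The median over the members was 0.11 and over all genes -0.0048. Of the 9 osteoclast markers, 7 were also at least 2-fold higher in LysM-St18flox osteoclasts, Oscar by 4.94-fold, Calcr by 4.28-fold, Mmp9 by 4.22-fold and Atp6v0d2, Itgb3, Dcstamp and Ocstamp by 2.26-fold to 3.41-fold. Acp5 differed by -0.29 and Ctsk by 0.29. The part of this marker shift in the members' differences was not tested. In bulk RNA, more cells of a type and more RNA per cell cannot be told apart.

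**Figure D4:**
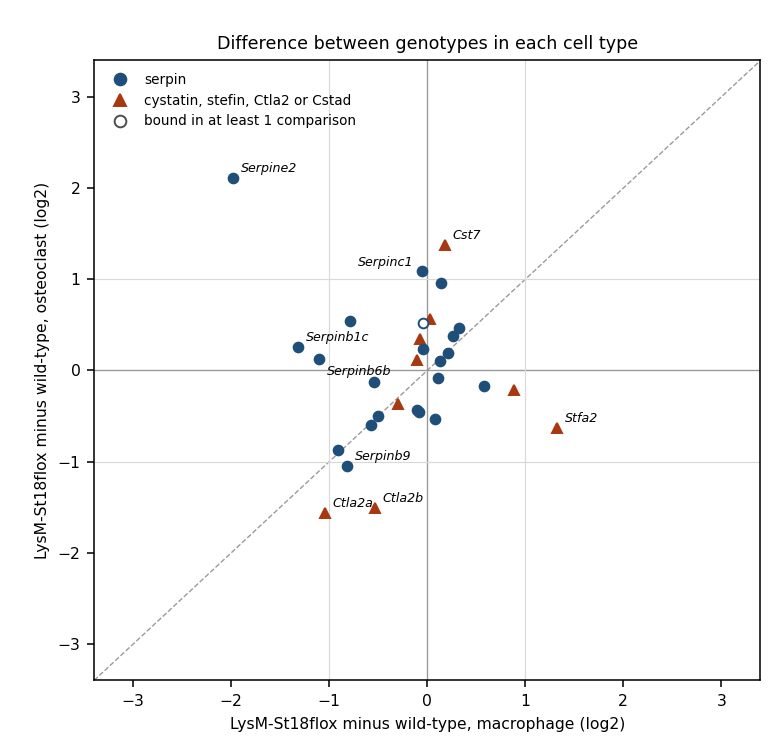
Difference between LysM-St18flox and wild-type in macrophages (x axis, log2) and in osteoclasts (y axis, log2) for 31 members compared in both cell types, 1 point per gene, with symbols and lines as in the plot of the 2 genotypes. Serpine2 lies at -1.99 and 2.11, the only member past 2-fold in opposite directions, and Ctla2a at -1.05 and -1.57.

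Several members are known from cells other than macrophages, and markers of those cells were read on the same arrays. Stefin A genes and Serpinb1a are abundant in neutrophils. The summed linear signal of 10 neutrophil and precursor markers was 33.2 in macrophages and 14.3 in osteoclasts of the wild type, and 40.4 and 9.88 in the same cells of LysM-St18flox, with all 10 well above background on at least 1 array. Mmp8 made up 60.6% of the sum in wild-type macrophages and differed by -2.08 and -3.46 between osteoclasts and macrophages of the wild type and LysM-St18flox. It was the only marker of the list at least 2-fold lower in wild-type osteoclasts. There Elane, Ltf and Ngp differed by -0.78 to -0.68, and S100a8, S100a9, Mpo and Camp by -0.34 to -0.16. Cxcr2 was at least 2.13-fold higher, and of the 9 markers compared 8 lay below 0 and 1 above. In LysM-St18flox osteoclasts 5 of the 10 were at least 2-fold lower. Csta2 was well above background on the macrophage arrays alone, where this sum was higher, and Serpinb1a was higher on the osteoclast arrays, where the sum was lower. Stfa2 was 2.83-fold higher in wild-type osteoclasts than macrophages and differed by -0.45 in LysM-St18flox. The part of such cells in these results was not tested. Serpinh1, Serpine2 and Serpinf1 are abundant in stromal cells. Of 7 stromal markers, Col3a1, Pdgfrb, Lum and Cxcl12 were not well above background on any array, and the sum of the 7 was 0.200 in macrophages of either genotype and 0.311 and 0.267 in wild-type and LysM-St18flox osteoclasts. Dcn, measured on all 4 arrays, was 2.40-fold and 3.14-fold higher in osteoclasts of the wild type and LysM-St18flox. Col1a2 differed by 0.38 and -0.10. The part of stromal cells in these results was not tested. Ctla2a is also known from T cells and mast cells. Of 7 mast cell and basophil markers, Cpa3, Mcpt4, Mcpt8 and Ms4a2 were not well above background on any array, and Tpsb2 was on all 4. Of 6 T and NK cell markers, Cd3g and Ncr1 were not well above background on any array, while Cd3e, Cd3d and Prf1 were on all 4. The sum of these 6 stayed between 1.12 and 1.28, and Cd3e made up between 49.7% and 65.1% of it. The mast cell and basophil sum was 0.309 and 0.449 in wild-type macrophages and osteoclasts and 0.235 and 0.365 in the LysM-St18flox cells. Of that list Gata2 was at least 3.70-fold higher in LysM-St18flox osteoclasts than macrophages. Of 5 endothelial markers Tek was not well above background on any array, while Kdr, Pecam1 and Egfl7 were on all 4. The 5 summed to 2.43, 1.33, 1.54 and 1.14 in wild-type macrophages and osteoclasts and then the LysM-St18flox cells. Between osteoclasts and macrophages of the wild type and LysM-St18flox, Kdr differed by -1.11 and -0.45. Pecam1 differed by -0.45 and 0.05, and Egfl7 by -0.49 and -0.44. Serpine2 is also known from platelets. Of 5 megakaryocyte markers Itga2b and Gp9 were not well above background on any array, and Pf4 made up between 99.0% and 99.9% of the sum of the 5 on every array. Pf4 was 8.08-fold and 14.3-fold lower in osteoclasts of the wild type and LysM-St18flox. In the wild type Ppbp differed by -0.03 and Gp1bb by 0.77, and in LysM-St18flox they differed by -3.34 and -0.76. The part of mast cells, endothelium or platelets in these results was not tested.

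The 23 measured members that passed 2-fold in no comparison had a widest difference between 0.12 and 0.96 by the probe used. Of these, 17 of the 23 passed background on all 4 arrays. The other probes of Serpinb6a and Serpinb8, which are among the 23, passed 2-fold between cell types, as given above. The 42 members not well above background on any array include Serpinb2, for PAI-2, Serpina3n and Serpina3f, the stefin genes Stfa1, Stfa2l1 and Stfa3, and most cystatins of the male reproductive tract, such as Cst9, Cst11 and Cst12. The others of the 42 are Cst10, Cst13, Cstl1, Csta1, Csta3, Cstdc2, Cstdc4, Cstdc6, Serpina1a, Serpina1c, Serpina1d, Serpina3a, Serpina3c, Serpina3i, Serpina3j, Serpina3k, Serpina5, Serpina6, Serpina7, Serpina10, Serpina12, Serpinb3a, Serpinb3b, Serpinb3d, Serpinb9b, Serpinb9c, Serpinb9e, Serpinb9f, Serpinb9g, Serpinb11, Serpinb13, Serpine3 and Serpini2. For all 42 the arrays give a ceiling and not an absence.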

How the data were processed

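Total RNA (100 ng) from each of 4 cultures was labelled with Cy3 and read on 1 one-colour Agilent array, per the labels' protocols. Per the file headers, the authors deposited each spot's processed intensity (background-subtracted and detrended within the array by Feature Extraction 11.0.1.1), median intensities of spot and local background, and 0 or 1 flags, which are other values. A table of log2 values, deposited by the authors, covers 30909 probes and served as an alternative. It holds levels and not ratios, is not centred on 0, has 1 shared distribution with a median of 9.39 in each column, and correlates with the matching array at 0.9998 or more; the sources used here do not give its other steps.

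Spots with an outlier flag were dropped, log2 processed signals were averaged over the spots of a probe, and the array's 75th percentile over probes was subtracted. Probes were named through RefSeq accessions and a gene table of GRCm38.p6, while the file headers name build mm9, so no probe or gene positions are given; the promoter windows are RefSeq's own, on GRCm38.p6, and no array value was placed by coordinate. Of 56605 probes, 32994 were named. A gene took its probe with the highest mean signal. Members past 2-fold in any comparison, and the 6 brightest of the others, are named with values, except that 1 member, which stays in the counts and medians, is not reported here. For a bound, the dim array counted at its own signal or at its lowest signal well above background, whichever was the greater, and a gene whose bound fell under 1-fold was left out. No test was possible, since no group had a second array. Alternatives were median centring, quantile normalization, normexp (limma 3.58.1, offset 50), other filters, probes, values and folds. Calculations used Python 3.11.15 and pandas 2.3.3, and the code was tested on simulated data. The 4 arrays share 1 slide and scan. The members and gene lists were chosen with earlier results of these data known.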

Additional observations from a re-analysis of the deposited data

Results flagged for a closer look

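Serpine2 was singled out because its genotype difference had opposite signs in the 2 cell types, each past 2-fold. LysM-St18flox minus wild-type was -1.99 in macrophages and 2.11 in osteoclasts. The difference between these was not tested, since each group had 1 array, and it rests on a single probe. The directions were the same under each of the alternative settings that were run for this gene.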

How the results depend on the processing

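The counts of members past 2-fold moved most with the handling of dim signals. In the wild type, the 14 of 38 members that differed between cell types became 7 of 39 with the normexp background correction. Among genes well above background on both arrays they became 9 of 31. Among genes at least 3 log2 above the lowest signal well above background, a setting chosen after seeing the data, they became 8 of 20. Of all genes, 8.85%, 11.4% and 12.2% passed 2-fold in these settings, against 13% in the reported one. In LysM-St18flox, 21 of 46 became 12 of 32 among genes well above background on both arrays, where the share of all genes went from 23.2% to 21.6%. Between genotypes, the 8 of 39 in macrophages became 5 of 36 with normexp (0 higher and 5 lower). They became 18 of 88 with no filter on dim probes and 14 of 39 at 1.5-fold. The share of all genes was 6.28% in the reported setting and 3.79%, 9.14% and 21.3% in these. The 7 of 37 in osteoclasts became 16 of 88 with no filter and 14 of 37 at 1.5-fold. There the share of all genes was 7.75% in the reported setting and 10.2% and 22.4% in these. The 9 of 31 whose differences between cell types differed between genotypes became 24 of 88 with no filter. The share of all genes went from 7.9% to 14.6%. A filter or a lower fold changes how many genes enter by its construction, and for normexp the cause was not tested. Centring each array on its median moved the median of all genes by 0.17 in the LysM-St18flox cell type comparison and by 0.25 between osteoclasts, and gave 15 higher and 6 lower, and 6 higher and 2 lower, in place of 12 and 9, and 4 and 3. With that centring 24.1% and 8.87% of all genes passed 2-fold. The difference of the differences had 8 higher and 1 lower under median centring, quantile normalization and the authors' value table, in place of 7 and 2. In these settings 8.58%, 7.12% and 6.91% of all genes passed. Of 681 values of single genes under these alternatives, 644 stayed on their side of 2-fold, 24 fell under it (17 of them with normexp), 12 passed it in the same direction and 1 passed it with the opposite sign. That was Serpinb8 between cell types in LysM-St18flox, at 1.5 as the median over its probes. In all 21 values changed sign, none of them at least 2-fold in the reported setting, where the widest was 0.362 in size.

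No paired analysis was possible because each group had 1 array and the labels give no replicate numbers, and leaving out a replicate was not possible for the same reason. Restricting the difference of the differences to genes well above background on every array gives no other value, since it was computed on those genes. Dim members limit the depth of the comparison: a bound says how much brighter a gene was at least, and members near the lowest signal well above background, such as Cst8 and Serpinb7, have little room above it.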
